A study of Mus musculus with 21 samples.

Results

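The 52 genes described here encode the machinery of G2 and mitosis: cyclins and kinases that start mitosis, spindle motors, the chromosomal passenger complex, the spindle checkpoint, kinetochore and cytokinesis proteins, and condensin. They were chosen by gene symbol from a list drawn up with earlier results of these data known. The rule for the list names genes that persist to 72 h among its members. All 52 were found among the 22483 genes of the deposited tables. All 52 were also among the 12360 genes that passed the count filter. The cells were MEDEP cells, a mouse erythroid progenitor line (BRC5), so the biological replicates come from 1 line. Polyadenylated RNA was sequenced from 21 libraries in 7 groups of 3. In 1 group the cells had erythropoietin (Epo) for 12 h together with succinyl acetone (SA), which blocks heme synthesis. The others were progenitors growing in stem cell factor (SCF) and dexamethasone (0 h) and cells 12, 24, 36, 48 and 72 h after both were withdrawn and Epo was given. Every group shares the line and its basal medium. The 0 h group is therefore the reference for a change of 3 factors at once, the loss of SCF and of dexamethasone and the gain of Epo.

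Entry into mitosis is driven by cyclin-dependent kinase 1 (Cdk1) with cyclins A and B. Exit is driven by the anaphase-promoting complex (APC/C), a ubiquitin ligase that destroys cyclin B and securin, first with the activator Cdc20 and later with Cdh1, the product of Fzr1. Most genes of this machinery are transcribed as a block late in the cell cycle, from promoters that often hold a CHR element near the start site and CCAAT boxes bound by NF-Y. Erythroid precursors divide a limited number of times after Epo takes over, then leave the cycle, condense the nucleus and lose it.

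Promoter windows of 250 bases before to 50 bases after the annotated start were read from RefSeq (mouse build GRCm38.p6) and matched for 44 of the 52 genes. Ccna2, Incenp, Cdc25c, Smc4, Aurkb, Tpx2, Kif20a and Spc24 had no window there. The letters TTTGAA, the core of the CHR, were found on either strand in 30 of the 44 genes (68.2%), against 20.2% of all 27025 genes with a window. CCAAT was found on either strand in 32 (72.7%), against 41.1% of all genes. Both were found in 26 (59.1%), against 7.97% of all genes. Counted per window over the 46 windows of these genes, 31 of 42 TTTGAA matches lay from 30 bases before the start onward, in 27 genes. Ect2 and Prc1 have overlapping windows, in which the same sites were counted more than once. The share of matches near the start was not counted over all windows. A match describes the letters and not a site of binding. The 5 windows below are those of the most abundant of the genes described in detail that hold both motifs, as 26 of the 44 genes do. They are written 5′ to 3′ on the gene's strand in lower case, with TTTGAA or its reverse complement TTCAAA, and CCAAT or its reverse complement ATTGG, in capitals.
Mki67 (chr7:135716330-135716629, minus strand): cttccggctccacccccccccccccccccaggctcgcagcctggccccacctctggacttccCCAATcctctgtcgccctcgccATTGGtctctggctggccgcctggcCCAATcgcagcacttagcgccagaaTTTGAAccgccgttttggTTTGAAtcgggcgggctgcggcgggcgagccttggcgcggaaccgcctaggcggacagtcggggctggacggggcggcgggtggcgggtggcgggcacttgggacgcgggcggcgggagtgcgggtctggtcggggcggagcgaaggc
Ube2c (chr2:164769679-164769978, plus strand): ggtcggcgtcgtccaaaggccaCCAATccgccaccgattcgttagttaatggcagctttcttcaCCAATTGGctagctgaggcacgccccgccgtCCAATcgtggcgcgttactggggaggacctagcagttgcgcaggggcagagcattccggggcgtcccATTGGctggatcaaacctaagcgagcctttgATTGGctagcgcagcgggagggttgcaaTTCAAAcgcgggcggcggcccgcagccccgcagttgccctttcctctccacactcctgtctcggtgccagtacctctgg
Top2a (chr11:99024140-99024439, minus strand): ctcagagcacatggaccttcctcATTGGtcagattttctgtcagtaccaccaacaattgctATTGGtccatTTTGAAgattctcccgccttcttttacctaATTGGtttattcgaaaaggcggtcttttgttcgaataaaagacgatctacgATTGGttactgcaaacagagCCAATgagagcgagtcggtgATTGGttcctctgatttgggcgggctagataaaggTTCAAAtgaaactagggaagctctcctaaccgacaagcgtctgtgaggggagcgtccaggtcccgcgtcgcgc
Cenpa (chr5:30666636-30666935, plus strand): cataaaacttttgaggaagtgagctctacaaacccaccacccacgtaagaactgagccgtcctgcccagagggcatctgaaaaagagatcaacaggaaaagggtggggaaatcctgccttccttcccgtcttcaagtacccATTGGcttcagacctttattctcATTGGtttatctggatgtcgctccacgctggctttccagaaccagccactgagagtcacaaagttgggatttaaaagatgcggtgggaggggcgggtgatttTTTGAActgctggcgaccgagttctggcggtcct
Cdk1 (chr10:69352863-69353162, minus strand): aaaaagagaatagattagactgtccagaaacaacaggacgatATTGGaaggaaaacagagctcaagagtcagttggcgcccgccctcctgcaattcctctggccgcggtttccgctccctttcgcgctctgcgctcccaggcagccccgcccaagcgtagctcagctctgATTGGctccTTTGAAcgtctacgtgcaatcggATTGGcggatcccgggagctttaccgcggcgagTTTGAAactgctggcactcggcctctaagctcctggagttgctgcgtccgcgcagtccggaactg

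Read on either strand, TTTGAA stands in 2 places in the windows of Mki67, Top2a and Cdk1. The windows of Ube2c and Cenpa hold it in 1 place, close to the RefSeq start, with CCAAT or ATTGG upstream. Fzr1 and Pttg1, the 2 genes whose share of transcripts was higher at 72 h than at 0 h, are printed for contrast and were chosen after their values were seen. Neither holds TTTGAA in its window, and only the Fzr1 window holds CCAAT on either strand (capitals). The windows follow RefSeq starts, and GENCODE M21 places both starts further upstream. The Pttg1 window lies wholly inside the GENCODE gene (chr11:43420250-43426251), so it holds no base upstream of that start. The Fzr1 window holds bases on both sides of the GENCODE start at chr10:81378516. Genes with TTTGAA have such differences too. The windows of Kif2c, Cdca8 and Kif4 lie wholly inside their GENCODE genes, and GENCODE places the Cenpa start upstream of its RefSeq start. Motifs outside these windows were not searched.
Fzr1 (chr10:81378321-81378620, minus strand): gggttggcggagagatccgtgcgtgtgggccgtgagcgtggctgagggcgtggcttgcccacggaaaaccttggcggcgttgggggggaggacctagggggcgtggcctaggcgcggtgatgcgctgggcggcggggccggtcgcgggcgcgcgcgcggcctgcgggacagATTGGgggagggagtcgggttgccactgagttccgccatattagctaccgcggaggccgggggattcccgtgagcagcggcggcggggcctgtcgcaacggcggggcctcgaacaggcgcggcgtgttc
Pttg1 (chr11:43425932-43426231, minus strand): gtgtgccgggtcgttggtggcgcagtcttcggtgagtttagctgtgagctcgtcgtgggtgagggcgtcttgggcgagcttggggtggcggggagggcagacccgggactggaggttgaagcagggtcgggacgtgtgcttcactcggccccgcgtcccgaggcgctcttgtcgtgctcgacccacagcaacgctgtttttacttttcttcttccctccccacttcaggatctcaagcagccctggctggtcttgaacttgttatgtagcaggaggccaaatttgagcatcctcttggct

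Of the other genes called higher at 72 h against 0 h, Nusap1 held neither motif in its window and Cdc25b held CCAAT alone, while Incenp had no window. The log2 change at 72 h was above 0 in 1 of the 30 genes with TTTGAA (Mki67, not called) and in 4 of the 14 without it (Pttg1, Fzr1, Nusap1 and Cdc25b, all called higher). The medians were -2.14 with TTTGAA, over a range of -4.36 to 0.14, and -1.93 without it, over a range of -3.67 to 4.28. No test was run on this split, and it depends on where each window was placed, as for Pttg1. Birc5, Bub1, Ccnb1, Mad2l1, Ncaph, Nek2 and Nuf2 lacked TTTGAA in the window and were among the genes that fell.

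Both TPM and a relative scale are needed to read these data. TPM (transcripts-per-million, deposited by the authors) is a share of all transcripts and is corrected for transcript length, so levels of different genes can be set side by side. CPM (counts-per-million) scaled by TMM, and every log2 change and test below unless TPM is named, is relative to the middle of all genes. The 2 scales part after 24 h. From 24 h to 36 h the median of all tested genes moved by -1.89 on the log2(TPM + 0.1) scale while it moved by -0.03 on the TMM scale. The globin genes' share of all counts was 22.6% at 36 h, against 4.76% at 24 h. How much of the parting of the scales came from globin or from other transcripts was not tested. A gene that only kept pace with the middle of all genes thus lost most of its TPM. In bulk RNA, fewer cells of a type and less RNA per cell cannot be told apart.

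Library totals were 16.7 to 39.3 M counts. All pairs of replicates differed by more than sampling noise. The third 48 h library stood apart from the other two: the chi-square per gene was 135 and 152 against them, and 22.9 between them. All 52 genes were above their group mean in it, by a median of 0.38 on the log2 scale. At 72 h, 0 of 52 genes were above the group mean in replicate 1 (median deviation -0.34) and 50 of 52 in replicate 3 (0.33). Erythroid markers summed to 375021 to 702351 CPM at 72 h, against 922.5 to 1097 CPM at 0 h, with 9 of the 10 listed genes found. Of 7 megakaryocyte and platelet markers, 4 passed the filter, and their sum was 17.6 to 22.4 CPM at 0 h, 1111 to 1414 CPM at 36 h and 1628 to 1745 CPM at 48 h, with Ppbp at 0 in every library. Mast cell markers summed to at most 19.4 CPM (Mcpt8 and Prss34 at 0), macrophage markers to at most 11.3 CPM, neutrophil markers to at most 7.81 CPM (S100a8 and S100a9 at 0) and pluripotency markers to at most 3.55 CPM (Sox2 at 0). The 11 stromal markers summed to 27.1 CPM in replicate 1 at 36 h and to at most 1.71 CPM in the groups at other times. The part of these differences in the results below was not tested.

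Taken as a sum, the 52 genes climbed for 24 h and then lost most of their share. Their summed TPM was 4908 ± 173 at 0 h, 7145 ± 340 at 12 h, 8773 ± 153 at 24 h, 2054 ± 266 at 36 h, 835 ± 363 at 48 h and 292 ± 99.4 at 72 h (SD, n = 3 each). On the TMM scale the sum was 5260 ± 190, 8124 ± 250, 13267 ± 605, 13641 ± 705, 8193 ± 1679 and 4190 ± 1125 CPM at the same times. The drop between 24 h and 36 h is therefore seen in TPM and not in the TMM-scaled sum, whereas the drops after 36 h are seen on both. That level sum does not describe the typical gene. At 36 h against 24 h the median change of the 52 was -0.37, with 25 lower, 5 higher and 22 not called. Among those higher, Incenp had 834 CPM at 36 h, against 220 CPM at 24 h, and Fzr1 817 CPM, against 111 CPM. At 48 h the wide spread came from replicate 3, which had a summed TPM of 1254, against 612 and 640 in the other libraries. In TPM, 40 of the 52 genes peaked at 24 h, 6 at 12 h, 4 at 0 h, 1 at 36 h (Fzr1) and 1 at 72 h (Pttg1). On the TMM scale 39 peaked at 24 h and 8 at 36 h. Peak times of all tested genes were not counted, and their median TPM difference at 36 h against 24 h was -1.89 on the log2 scale.

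**Figure D1:**
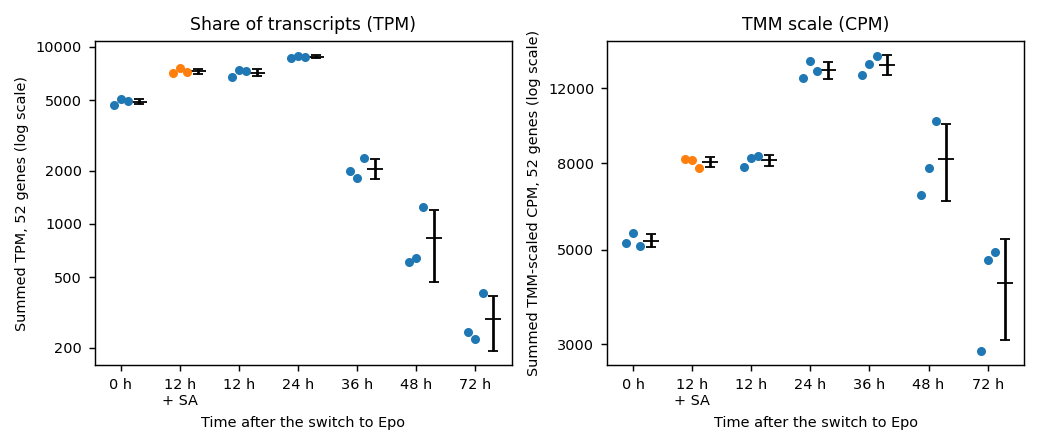
Summed level of the 52 genes in each library (points), as TPM at left and as TMM-scaled CPM at right, both on log axes, with the mean and SD of the 3 libraries beside them. The sum peaks at 24 h in TPM (8773) and is 13267 and 13641 CPM at 24 h and 36 h on the TMM scale, and the SA libraries (orange) lie beside those at 12 h.

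At 12 h against 0 h, the first step after the switch, 38 of the 52 genes rose (edgeR quasi-likelihood test, adjusted p of at most 0.05), 1 fell and 13 were not called. Of all tested genes 25.3% rose and 27.6% fell. The median change of the 52 was 0.51 on the log2 scale (0.47 in TPM), against -0.01 for all tested genes (-0.06 in TPM). All 6 genes of mitotic entry and all 7 of cytokinesis rose, as did 7 of 11 spindle kinases, proteins and motors, 2 of 4 subunits of the passenger complex, 5 of 9 checkpoint and anaphase genes, 6 of 8 kinetochore genes and 5 of 7 of chromosome structure. With a limma test on log2(TPM + 1) 23 rose and 0 fell.

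Cdc25b, the phosphatase that activates Cdk1 at the start of mitosis, changed most. It had 154, 170 and 169 TPM at 12 h, against 21.4, 23.0 and 24.0 TPM at 0 h, and rose by 2.89 ± 0.14 on the log2 scale (SE, adjusted p = 8.9e-13). Every 12 h library stood far above every 0 h library. Its relative Cdc25c, which acts on the same kinase, rose by 0.77 ± 0.18 (adjusted p = 0.0013), and the TPM ratio of Cdc25b to Cdc25c was 5.08 ± 0.191 at 12 h, against 1.16 ± 0.0551 at 0 h (SD, n = 3 each). Cyclin B1 (Ccnb1) had 323, 347 and 330 TPM at 12 h, against 177, 205 and 205 TPM at 0 h (0.83 ± 0.14, adjusted p = 4.7e-05). Cdk1 itself moved less, with 216, 235 and 222 TPM at 12 h, against 161, 177 and 170 TPM at 0 h (0.42 ± 0.14, adjusted p = 0.014).

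Aurora A (Aurka), the kinase of centrosomes and spindle poles, rose by 1.45 ± 0.14 (adjusted p = 1.9e-08) to 136 TPM at 12 h, against 51.3 TPM at 0 h. Genes of the central spindle rose too. Kif23 and Racgap1, the motor and the GTPase-activating protein of centralspindlin, rose by 1.11 ± 0.16 (adjusted p = 7.7e-06) and 1.07 ± 0.18 (adjusted p = 2.9e-05), and Prc1, which bundles the microtubules they sit on, by 1.06 ± 0.14 (adjusted p = 1.9e-06). Racgap1 had 196, 224 and 222 TPM at 12 h, against 99.9, 109 and 102 TPM at 0 h. Citron kinase (Cit), which acts at the midbody, had 41.6, 43.2 and 44.3 TPM at 12 h, against 21.5, 22.8 and 27.5 TPM at 0 h (0.97 ± 0.27, adjusted p = 0.0052). In each of these genes the libraries of 12 h did not overlap those of 0 h.

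The proliferation antigen Ki-67 (Mki67), which coats mitotic chromosomes, had 409, 427 and 475 TPM at 12 h, against 248, 271 and 261 TPM at 0 h (0.82 ± 0.19, adjusted p = 0.0013). Topoisomerase II alpha (Top2a), which untangles sister chromatids, had 495, 525 and 523 TPM at 12 h, against 319, 312 and 305 TPM at 0 h (0.78 ± 0.17, adjusted p = 0.00073). Survivin (Birc5), a passenger complex subunit, had 236, 251 and 244 TPM at 12 h, against 165, 174 and 180 TPM at 0 h (0.56 ± 0.14, adjusted p = 0.0023). Both activators of the APC/C were higher, Cdc20 by 0.69 ± 0.14 (adjusted p = 0.00028) and Fzr1 by 0.46 ± 0.12 (adjusted p = 0.0025). The smallest calls were those of the condensin subunit Ncapd2 (0.34 ± 0.13, adjusted p = 0.031) and of Ect2 (0.33 ± 0.14, adjusted p = 0.047), the exchange factor that starts furrow ingression, and each was lost in 5 of the 6 fits that left out 1 library.

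Nusap1, a microtubule-bundling protein of the spindle, went the other way, with 102, 116 and 114 TPM at 12 h, against 167, 173 and 161 TPM at 0 h. It fell by 0.55 ± 0.22 on the log2 scale (adjusted p = 0.038). The libraries did not overlap, but the call was lost in each of the 6 fits that left out a library of either group, where the change stayed between -0.60 and -0.51. The kinase subunit of the passenger complex, Aurora B (Aurkb), was not called, at 82.7, 82.4 and 80.3 TPM at 12 h, against 98.7, 91.5 and 95.7 TPM at 0 h (-0.18 ± 0.12, adjusted p = 0.24). The checkpoint genes Ttk, Mad2l1 and Bub1b and the separase gene Espl1 were also not called, with changes of -0.02 to 0.11.

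With SA in the medium no difference from the 12 h cells was detected in the 52 genes. The question of this arm is whether the early response to Epo needs new heme. None of the 52 was called higher or lower in the SA libraries against the 12 h libraries (edgeR), and 0 had an unadjusted p under 0.05. Of all tested genes 0.0162% were called higher and 0.364% lower, so that few calls could be made in any group of genes. The DESeq2 Wald test and limma also called 0 of the 52, with 0 at an unadjusted p under 0.05, and a fit to the 6 libraries alone called 0, with 3 at that level. The changes lay between -0.14 (Cdc25b) and 0.18 (Spc25, a kinetochore subunit of the Ndc80 complex), with a median of 0.01 and standard errors of 0.10 to 0.27. Ranges of 2 standard errors around the 52 changes spanned -0.67 to 0.48, and none reached a fold of 2. The summed TPM was 7279 ± 231 with SA and 7145 ± 340 without (SD, n = 3 each). A difference that small does not show that the groups are alike.

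Single genes showed the same closeness. Cdc25b had 144, 165 and 150 TPM with SA, against 154, 170 and 169 TPM without. Mki67 had 462, 420 and 413 TPM with SA and 409, 427 and 475 TPM without (-0.05 ± 0.19). Ccnb1 had 329, 366 and 351 TPM with SA and 323, 347 and 330 TPM without (0.01 ± 0.14), and Cdk1 235, 234 and 234 TPM with SA and 216, 235 and 222 TPM without (0.05 ± 0.14). In all of these the libraries with SA overlapped those without it. Within same-numbered pairs, Cdc25b TPM was lower with SA in 3 of 3 and Ccnb1 TPM was higher in 3 of 3, while Mki67 and Cdk1 differed in sign between pairs. With the replicate number as a block, 0 of the 52 were called. For Aurkb they did not overlap, with 90.9, 90.4 and 86.6 TPM with SA and 82.7, 82.4 and 80.3 TPM without, but its change of 0.10 ± 0.12 was not called. Among the genes of the wider mitotic lists named further on, the SA libraries also had 0 calls.

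**Figure D2:**
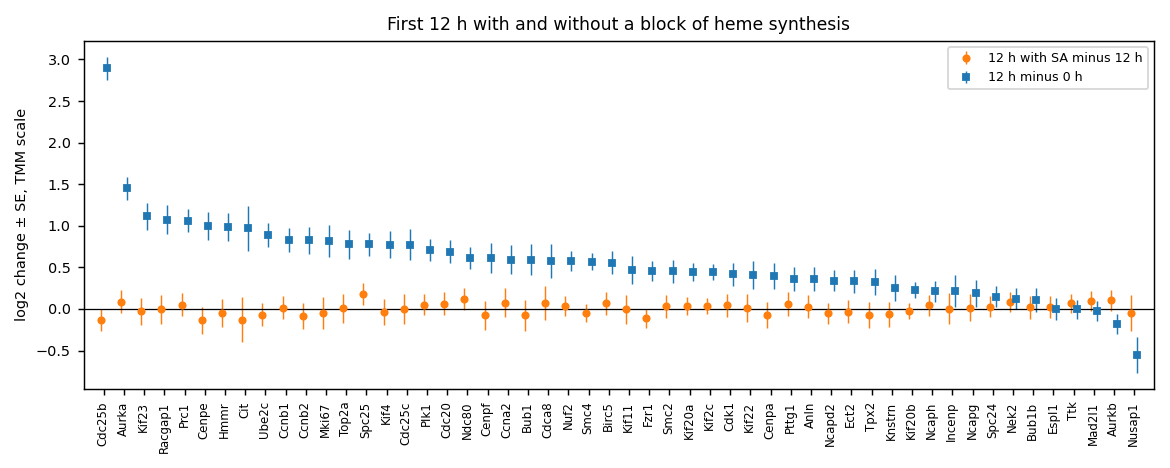
Log2 change of each of the 52 genes on the TMM scale with its standard error, for 12 h with SA against 12 h (orange circles) and for 12 h against 0 h (blue squares), ordered by the change at 12 h. The SA changes lie between -0.14 and 0.18, while those at 12 h run from -0.55 (Nusap1) to 2.89 (Cdc25b).

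At 24 h against 12 h, 39 of the 52 genes rose further and 0 fell (edgeR), against 19.1% of all tested genes that rose and 22% that fell. Their median change was 0.50, but only 0.19 in TPM, where the median of all tested genes was -0.28. The size of the step depends on the scale: limma on log2(TPM + 1) called 5 of the 52 higher and 0 lower. All 6 entry genes, all 8 kinetochore genes and all 7 genes of chromosome structure rose on the TMM scale, against 3 of 9 checkpoint and anaphase genes. With the replicate number as a block, 44 of the 52 rose.

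Fzr1 led this step, with 93.6, 85.8 and 80.7 TPM at 24 h, against 43.7, 43.0 and 42.6 TPM at 12 h, and rose by 1.31 ± 0.12 (adjusted p = 4.1e-08). Mki67 followed, with 769, 848 and 871 TPM at 24 h, against 409, 427 and 475 TPM at 12 h (1.25 ± 0.20, adjusted p = 3.2e-05), the highest level of any of the 52 genes in the series. Cit had 62.0, 69.3 and 68.4 TPM at 24 h, against 41.6, 43.2 and 44.3 TPM at 12 h (1.03 ± 0.27, adjusted p = 0.0048). Ube2c, the ubiquitin-conjugating enzyme of the APC/C, had 718, 728 and 673 TPM at 24 h, against 450, 453 and 443 TPM at 12 h (0.95 ± 0.14, adjusted p = 2e-05). In these genes the groups did not overlap on the TPM scale either.

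Others moved less on the TMM scale. Cdc20 had 116, 101 and 106 TPM at 24 h, against 122, 136 and 142 TPM at 12 h, with a log2 change of -0.01 ± 0.14 on the TMM scale and of -0.31 in TPM. Its TPM values did not overlap and were lower at 24 h in 3 of 3 same-numbered pairs. The same held in the pairs for Pttg1, Bub1, Ttk, Anln and Kif20b, while the TPM difference was above 0 for 42 of the 52 genes. The change of Aurkb was 0.30 ± 0.12 (adjusted p = 0.055) on the TMM scale, past the threshold with the replicate number as a block, and -0.0019 in TPM. Top2a had 534, 564 and 569 TPM at 24 h, against 495, 525 and 523 TPM at 12 h. Its call at 0.44 ± 0.17 (adjusted p = 0.049) was lost in each of the 6 fits without 1 library. The ratio of Fzr1 to Cdc20, which needs no scaling between libraries, was 0.806 ± 0.0460 at 24 h, against 0.325 ± 0.0293 at 12 h (SD, n = 3 each).

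From 24 h to 36 h genes were called in both directions, among the 52 as among all tested genes. On the TMM scale 25 of the 52 genes fell, 5 rose and 22 were not called at 36 h against 24 h, while 39% of all tested genes fell and 34.1% rose. The median change was -0.37, and -2.42 in TPM, where the median of all tested genes was -1.89. limma on log2(TPM + 1) called 49 of the 52 lower and 1 higher. The TPM difference was above 0 in 2 of the 52 and in 1260 of all 12360 tested genes. Loss of share was thus general at this step and not particular to the 52. Without replicate 1 of 36 h the fall was called for 20 genes and the rise for 5.

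The kinases Aurkb, Ttk and Cdk1 fell most on the TMM scale. Aurkb had 10.6, 8.60 and 13.4 TPM at 36 h, against 85.9, 78.6 and 80.7 TPM at 24 h (-0.85 ± 0.13, adjusted p = 4.5e-06). Ttk (Mps1), the kinase at the top of the spindle checkpoint, had 4.08, 3.46 and 5.07 TPM at 36 h, against 31.2, 33.2 and 32.9 TPM at 24 h (-0.87 ± 0.12, adjusted p = 2e-06). Cdk1 had 31.4, 26.1 and 42.9 TPM at 36 h, against 235, 245 and 239 TPM at 24 h (-0.90 ± 0.14, adjusted p = 7.2e-06). Top2a fell by 0.84 ± 0.17 (adjusted p = 0.00022), Cdc20 by 0.67 ± 0.14 (adjusted p = 0.00027) and Ccnb1 by 0.57 ± 0.14 (adjusted p = 0.0013). For Birc5 the change of -0.38 ± 0.14 (adjusted p = 0.02) was not called without replicate 1 or replicate 2 of 36 h. Mki67 kept pace with the middle of all genes, at 0.22 ± 0.19 (adjusted p = 0.30), though its TPM was 238, 193 and 241 at 36 h, against 769, 848 and 871 at 24 h.

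The 5 genes that rose were Fzr1, Pttg1, Incenp, Cit and Cdc25b, and on the TPM scale only Fzr1 was called higher and Pttg1 stayed above 0. Fzr1 had 152, 166 and 140 TPM at 36 h, against 93.6, 85.8 and 80.7 TPM at 24 h (2.88 ± 0.12, adjusted p = 4.6e-14; 0.81 in TPM). Pttg1 (securin), the inhibitor of separase, had 32.6, 30.3 and 32.8 TPM at 36 h, against 26.6, 27.8 and 32.3 TPM at 24 h (2.14 ± 0.15, adjusted p = 5.6e-11; 0.15 in TPM), and the TPM values of the groups overlap. Incenp, the scaffold of the passenger complex, had 105, 134 and 130 TPM at 36 h, against 148, 136 and 137 TPM at 24 h, so its rise of 1.93 ± 0.20 (adjusted p = 2.1e-08) turned to -0.20 in TPM. Cit rose by 0.90 ± 0.27 (adjusted p = 0.0057) and Cdc25b by 0.43 ± 0.13 (adjusted p = 0.0068), against -1.30 and -1.63 in TPM.

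**Figure D3:**
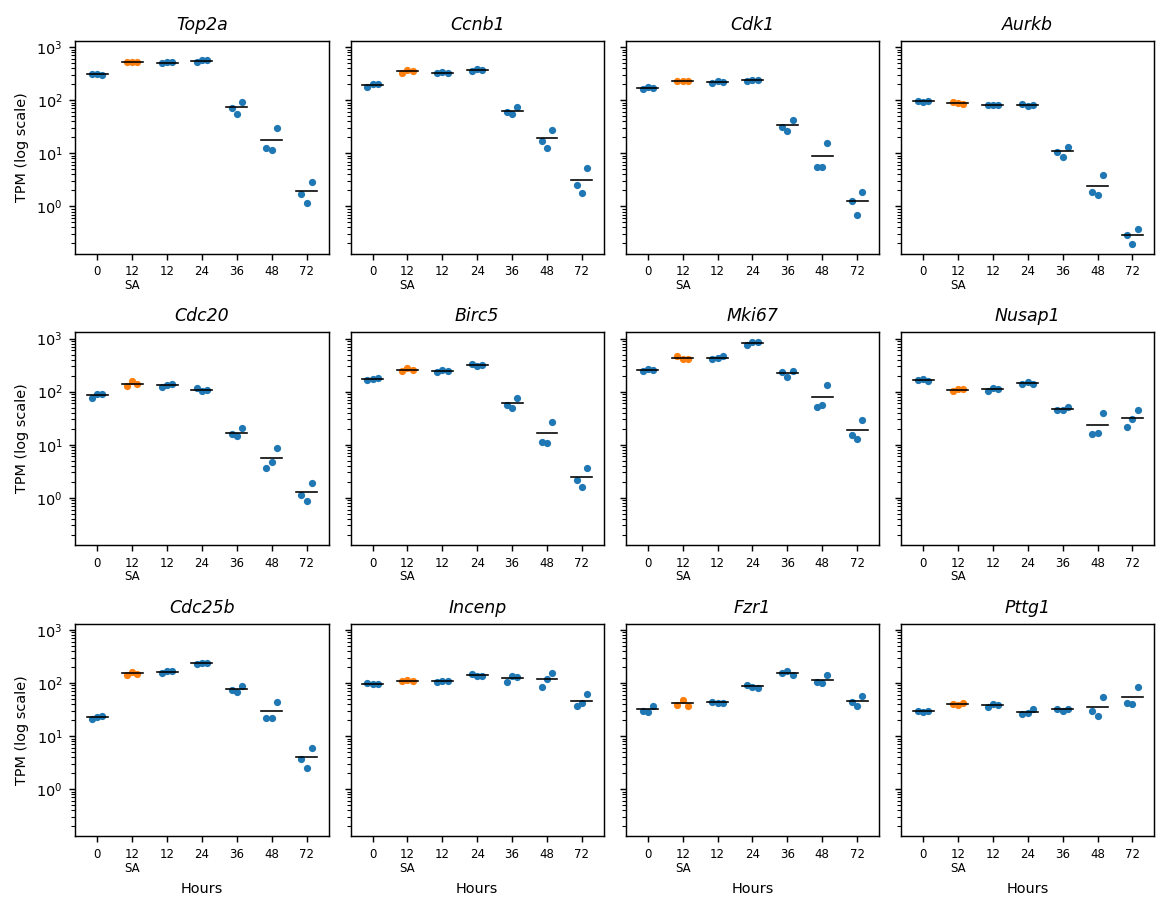
TPM of 12 genes in each of the 21 libraries (points) with the group mean (line), on a log axis, at 0 to 72 h with SA (orange) left of 12 h. Top2a, Ccnb1, Cdk1, Aurkb, Cdc20 and Birc5 drop from 24 h on, while Incenp, Fzr1 and Pttg1 stay above 24 TPM in all libraries.

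At 48 h against 36 h, 48 of the 52 genes fell, 2 rose and 2 were not called, against 29.7% of all tested genes that fell and 20% that rose. The median change was -1.18 (-1.83 in TPM), against -0.07 for all tested genes (-0.55 in TPM). Every class took part, with all 6 entry, all 8 kinetochore, all 7 cytokinesis and all 7 chromosome structure genes lower. Without replicate 3 of 48 h, the library that stood apart, 49 fell and 2 rose.

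The steepest falls were those of Spc25, Aurkb and Nuf2. Spc25 fell by 1.62 ± 0.15 (adjusted p = 7.8e-08) and Nuf2 by 1.52 ± 0.13 (adjusted p = 3.3e-08), both parts of the Ndc80 complex, which ties microtubules to the kinetochore. The other subunits, Ndc80 (-1.24 ± 0.14) and Spc24 (-1.12 ± 0.14), lay near the median of the 52. Nuf2 had 3.62, 3.26 and 9.04 TPM at 48 h, against 21.2, 17.6 and 24.7 TPM at 36 h. Aurkb had 1.90, 1.63 and 3.86 TPM at 48 h, against 10.6, 8.60 and 13.4 TPM at 36 h (-1.54 ± 0.14, adjusted p = 5e-08). Top2a had 12.6, 11.4 and 29.4 TPM at 48 h, against 71.1, 55.8 and 92.7 TPM at 36 h (-1.43 ± 0.18, adjusted p = 1.7e-06). In these genes replicate 3 was the highest of the 48 h libraries and still lay below every 36 h library. Mki67 now fell as well, by 0.92 ± 0.19 (adjusted p = 0.00053). The smallest call among the genes that fell was that of Smc2, a condensin ATPase, at -0.48 ± 0.14 (adjusted p = 0.007).

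The 2 genes that rose were Incenp (0.60 ± 0.19, adjusted p = 0.012) and Pttg1 (0.56 ± 0.14, adjusted p = 0.0021), and their TPM differences were -0.07 and 0.08. The Incenp call was lost without replicate 1 of 36 h or replicate 2 of 48 h. Fzr1 was at 106, 99.7 and 144 TPM at 48 h, against 152, 166 and 140 TPM at 36 h, with a change of 0.28 ± 0.12 (adjusted p = 0.0501, not called) and of -0.40 in TPM. Nusap1 was not called either (-0.44 ± 0.22, adjusted p = 0.10).

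At 72 h against 48 h the fall went on in 48 of the 52 genes, with 2 that rose and 2 not called, against 34.5% of all tested genes that fell and 24.7% that rose. The median change was -1.71 (-2.33 in TPM), against -0.05 for all tested genes (-0.58 in TPM). Leaving out replicate 3 of 48 h, or replicate 1 or 3 of 72 h, left 47 to 49 genes lower and 2 higher. Spc25 (-2.60 ± 0.20, adjusted p = 9.9e-10), Aurkb (-2.49 ± 0.18, adjusted p = 3.7e-10) and the kinetochore protein Cenpf (-2.39 ± 0.20, adjusted p = 2.3e-09) fell most. Ube2c had 5.11, 3.29 and 9.19 TPM at 72 h, against 32.6, 34.8 and 76.3 TPM at 48 h, and Ccnb1 2.52, 1.77 and 5.26 TPM at 72 h, against 17.2, 12.6 and 28.0 TPM at 48 h. Fzr1 fell here too, by 0.70 ± 0.12 (adjusted p = 2.7e-05), and Incenp by 0.56 ± 0.19 (adjusted p = 0.016), a call that was lost without replicate 2 of 48 h or replicate 1 of 72 h.

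Pttg1 and Nusap1 rose in the last day. Pttg1 had 41.3, 40.0 and 84.6 TPM at 72 h, against 29.3, 24.1 and 54.0 TPM at 48 h (1.35 ± 0.14, adjusted p = 4.3e-08; 0.62 in TPM). Nusap1 had 21.6, 30.0 and 45.9 TPM at 72 h, against 16.1, 16.4 and 39.3 TPM at 48 h (1.34 ± 0.22, adjusted p = 2.5e-05; 0.50 in TPM). Replicate 3 was the highest library at both times, and in both genes the groups overlap in TPM. The 72 h library was the higher one in 3 of 3 same-numbered pairs for each gene. An exon of Nusap1 shares 172 bases with an exon of Oip5 on the opposite strand, and Oip5 had 2.60 ± 1.18 TPM at 72 h, against 7.23 ± 3.49 TPM at 48 h (SD, n = 3 each). The motor Kif22 (-0.15 ± 0.18, adjusted p = 0.47) and the condensin ATPase Smc4 (-0.05 ± 0.11, adjusted p = 0.71) were not called.

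Over the whole course, 72 h against 0 h, 44 of the 52 genes were lower, 5 were higher and 3 were not called, against 46.5% of all tested genes that were lower and 43.3% that were higher. The median change was -2.08, against -0.13 for all tested genes. In TPM the medians were -5.79 and -3.47. The median gene of the 52 had 1.84% of its 0 h TPM left at 72 h, against 4.44% for the 9600 tested genes with at least 1 TPM at 0 h. At most 5% was left for 43 of the 52 genes and at most 10% for 47. The 9600 genes were not counted at these cuts, but their median of 4.44% also lies under 5%. Without replicate 1 of 72 h 43 were lower and 6 higher, and without replicate 3 43 were lower and 5 higher.

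The largest falls were those of Aurkb (-4.76 ± 0.17, adjusted p = 2e-16), Ttk (-4.36 ± 0.17, adjusted p = 6.1e-16) and the checkpoint kinase Bub1 (-3.67 ± 0.22, adjusted p = 1.7e-12). Aurkb had 0.282, 0.196 and 0.375 TPM at 72 h, against 98.7, 91.5 and 95.7 TPM at 0 h. Ttk had 0.146, 0.0763 and 0.195 TPM at 72 h, against 40.3, 44.7 and 41.9 TPM at 0 h. Cdk1 had 1.28, 0.690 and 1.90 TPM at 72 h, against 161, 177 and 170 TPM at 0 h (-3.47 ± 0.17, adjusted p = 2.6e-14). Top2a had 1.75, 1.18 and 2.90 TPM at 72 h, against 319, 312 and 305 TPM at 0 h (-3.43 ± 0.19, adjusted p = 4e-13). Polo-like kinase 1 (Plk1) had 0.668, 0.378 and 0.811 TPM at 72 h, against 55.5, 57.0 and 59.4 TPM at 0 h (-2.88 ± 0.15). The actin-binding furrow protein anillin (Anln) had 0.762, 0.328 and 1.15 TPM at 72 h, against 67.7, 67.3 and 76.9 TPM at 0 h (-2.99 ± 0.16). In all of these genes the libraries of the 2 times are far apart on both scales.

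The centromere and kinetochore class was the most uniform, with 8 of 8 genes lower and changes between -2.88 (Nuf2) and -1.39 (Cenpe). Cenpa, the histone H3 variant of centromeres, had 2.63, 2.5 and 5.31 TPM at 72 h, against 166, 194 and 208 TPM at 0 h (-1.78 ± 0.17). The kinetochore motor Cenpe had 1.06, 0.671 and 1.59 TPM at 72 h, against 33.6, 41.4 and 42.0 TPM at 0 h. Nuf2 had 0.903, 0.428 and 1.03 TPM at 72 h, against 79.1, 82.7 and 75.2 TPM at 0 h.

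The genes called higher at 72 h were Pttg1, Fzr1, Incenp, Nusap1 and Cdc25b, and in TPM only the first 2 were. Pttg1 (4.28 ± 0.15, adjusted p = 2.3e-16) had 41.3, 40.0 and 84.6 TPM at 72 h, against 30.2, 29.1 and 30.3 TPM at 0 h. Fzr1 (4.22 ± 0.13, adjusted p = 3.1e-17) had 44.3, 36.3 and 56.9 TPM at 72 h, against 30.4, 28.7 and 36.4 TPM at 0 h. For Pttg1 the groups did not overlap, whereas the lowest Fzr1 value at 72 h lay just under the highest at 0 h. Of the 9600 genes with at least 1 TPM at 0 h, 5.35% had a higher mean TPM at 72 h than at 0 h.

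Incenp, Nusap1 and Cdc25b outlasted the middle of all genes but lost share of transcripts. Incenp (2.87 ± 0.20, adjusted p = 2e-11) had 36.3, 42.1 and 61.7 TPM at 72 h, against 99.1, 94.9 and 97.3 TPM at 0 h, a difference of -1.09 in TPM. Nusap1 (1.50 ± 0.22, adjusted p = 2.2e-06) had 21.6, 30.0 and 45.9 TPM at 72 h, against 167, 173 and 161 TPM at 0 h (-2.42 in TPM). Cdc25b (1.31 ± 0.14, adjusted p = 1.5e-08) had 3.76, 2.54 and 5.93 TPM at 72 h, against 21.4, 23.0 and 24.0 TPM at 0 h (-2.54 in TPM). The calls of all 5 genes also held with DESeq2's size factors, without the globin genes in the library sizes and in the fit to the 6 libraries.

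Mki67, Smc4 and Cit were not called at 72 h against 0 h. Mki67 had 15.1, 12.7 and 29.2 TPM at 72 h, against 248, 271 and 261 TPM at 0 h (0.14 ± 0.19, adjusted p = 0.49; -3.86 in TPM). Its direction on the TMM scale rests on the 72 h libraries, since the change was -0.15 without replicate 3 and 0.37, past the threshold, without replicate 1. Cit had 0.776, 1.13 and 2.21 TPM at 72 h, against 21.5, 22.8 and 27.5 TPM at 0 h (-0.02 ± 0.28, adjusted p = 0.94; -4.14 in TPM), and its sign turned to 0.32 without replicate 1 of 72 h. Smc4 changed by 0.11 ± 0.11 (adjusted p = 0.33; -3.86 in TPM). Just below them, Kif22 was called lower, by 0.38 ± 0.17 on the log2 scale (adjusted p = 0.043; -3.38 in TPM).

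**Figure D4:**
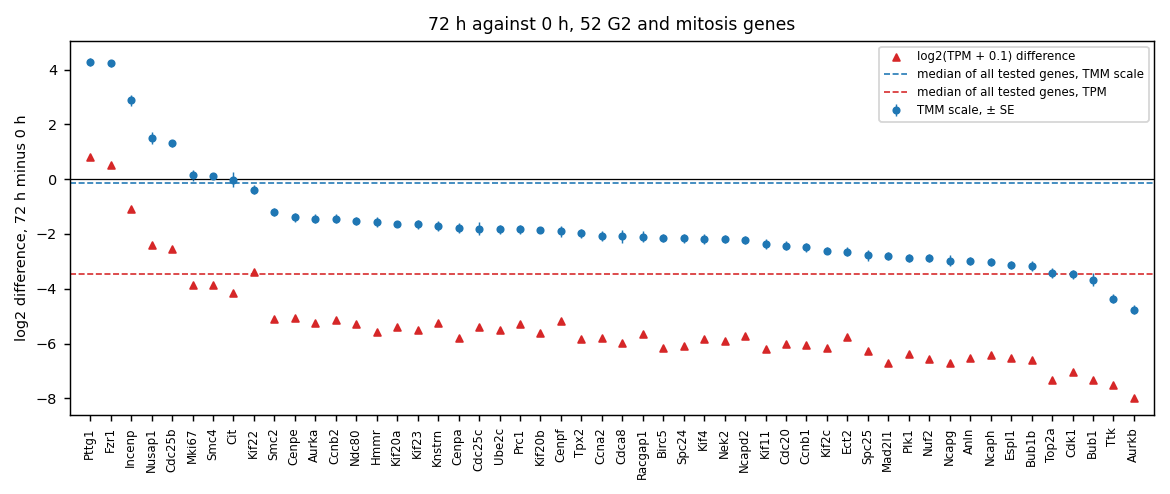
TMM-scale log2 change, with its standard error, of each of the 52 genes at 72 h against 0 h (blue circles) and as a difference of log2(TPM + 0.1) (red triangles), with the median of all tested genes on each scale (dashed, -0.13 and -3.47). Only Pttg1 and Fzr1 lie above 0 on both scales, and most of the genes lie below both medians.

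Ratios of TPM between genes inside a library need no scaling between libraries. In the passenger complex the TPM ratio of Incenp to Aurkb was 1.02 ± 0.0166 at 0 h, 1.32 ± 0.0394 at 12 h, 1.72 ± 0.0148 at 24 h, 11.8 ± 3.33 at 36 h, 52.7 ± 17.9 at 48 h and 169 ± 43.1 at 72 h (SD, n = 3 each). The ratio of Incenp to Birc5 was 20.1 ± 5.82 at 72 h, against 0.563 ± 0.0340 at 0 h, and that of Incenp to borealin (Cdca8) was 32.7 ± 18.6 at 72 h, against 0.939 ± 0.0633 at 0 h. The scaffold's mRNA was thus the most abundant of the 4 at 72 h and was 1 of the 2 least abundant at 0 h.

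The APC/C activators changed places. The TPM ratio of Fzr1 to Cdc20 was 0.372 ± 0.0458 at 0 h, 0.325 ± 0.0293 at 12 h, 0.806 ± 0.0460 at 24 h, 9.29 ± 2.29 at 36 h, 22.2 ± 6.13 at 48 h and 37.3 ± 6.40 at 72 h. Cdc20 exceeded Fzr1 in all libraries up to 24 h, and Fzr1 exceeded Cdc20 in all libraries from 36 h. Fzr1 overlaps an exon of Mfsd12 on the opposite strand by 4 bases, and whether reads of Mfsd12 entered its values was not tested. The ratio of securin (Pttg1) to separase (Espl1) was 185 ± 40.3 at 72 h, against 0.840 ± 0.0287 at 0 h. The ratios of Nusap1 to Tpx2, another gene of the spindle class, were 19.6 ± 7.56 at 72 h and 1.65 ± 0.0742 at 0 h.

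Ratios among genes of chromosome structure differed as well. Mki67 to Top2a was 9.85 ± 1.08 at 72 h, against 0.835 ± 0.0488 at 0 h. The condensin ATPases Smc4 and Smc2, which act as a pair, kept a ratio of 2.26 ± 0.0648 at 0 h, 2.45 ± 0.0311 at 12 h, 2.36 ± 0.0310 at 24 h, 2.21 ± 0.136 at 36 h and 1.81 ± 0.0437 at 48 h, and then stood at 5.49 ± 0.774 at 72 h. The ratio of Smc4 to the condensin I subunit Ncapd2 was 8.80 ± 1.12 at 72 h, against 2.28 ± 0.150 at 0 h. Cyclin B1 to Cdk1 was 2.44 ± 0.419 at 72 h, against 1.16 ± 0.0525 at 0 h, and Cenpe to Nuf2 1.43 ± 0.221 at 72 h, against 0.494 ± 0.0669 at 0 h. The ratios are descriptions, and no test was run on them.

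By class, the summed TPM left at 72 h was smallest in cytokinesis, the kinetochore and mitotic entry. Cytokinesis genes summed to 10.1 ± 3.24 TPM at 72 h, against 464 ± 15.1 TPM at 0 h, and entry genes to 15.4 ± 7.46 TPM at 72 h, against 695 ± 40.6 TPM at 0 h. Kinetochore genes summed to 11.3 ± 4.59 TPM at 72 h, against 592 ± 40.4 TPM at 0 h. Chromosome structure genes summed to 44.2 ± 15.2 TPM at 72 h, against 1167 ± 28.2 TPM at 0 h, and spindle genes to 49.2 ± 16.2 TPM at 72 h, against 809 ± 27.1 TPM at 0 h, most of it Nusap1. The passenger complex kept 51.3 ± 15.5 TPM at 72 h, against 469 ± 5.54 TPM at 0 h, nearly all of it Incenp, and the checkpoint and anaphase class 110.5 ± 39.6 TPM at 72 h, against 711.5 ± 26.1 TPM at 0 h, nearly all of it Pttg1 and Fzr1.

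**Figure D5:**
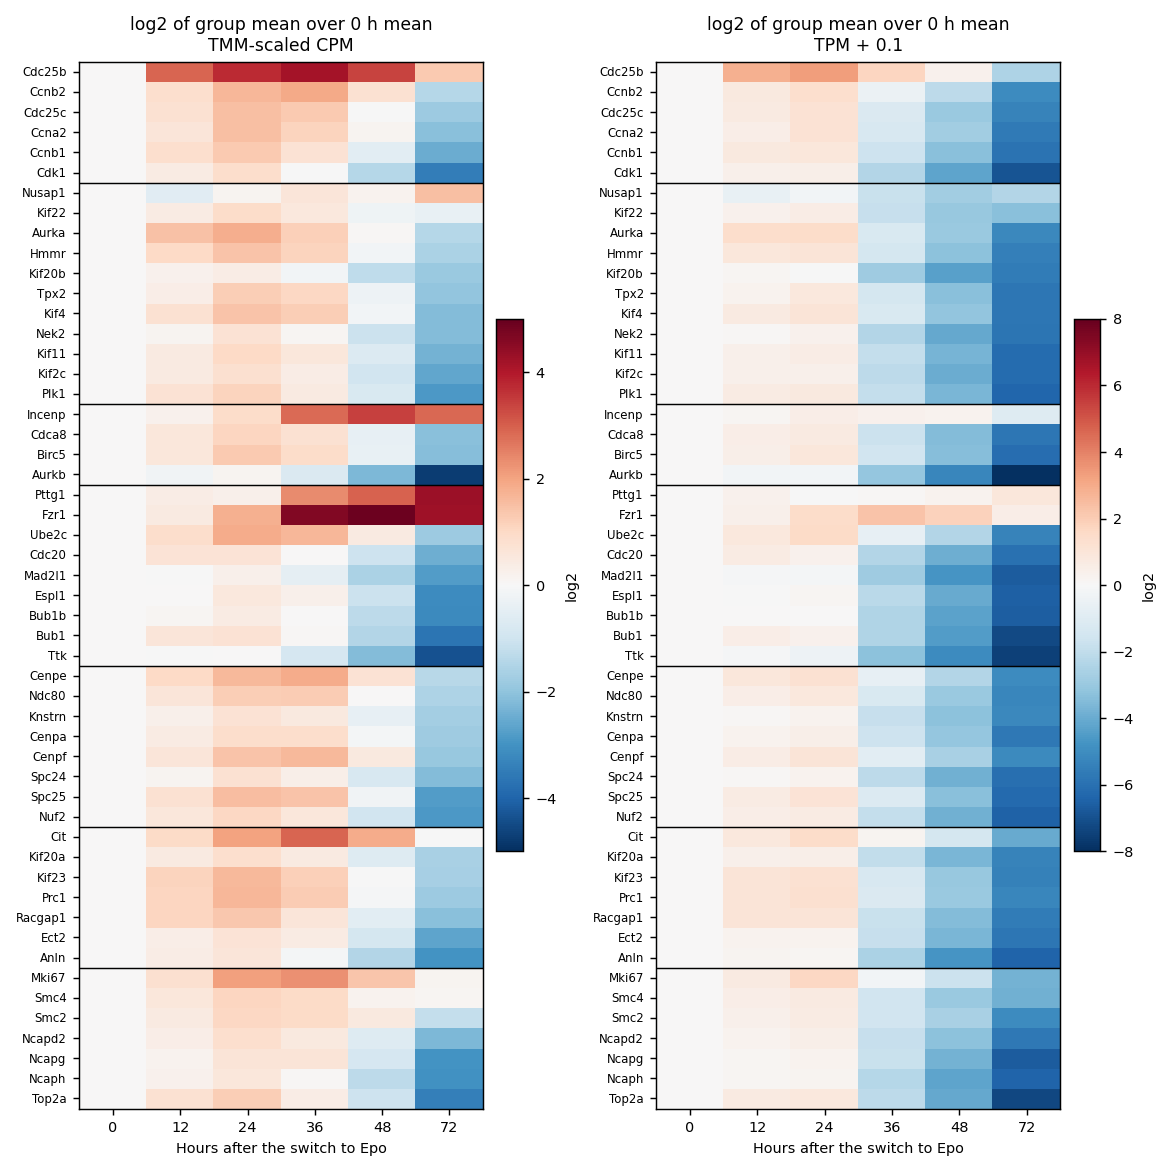
Log2 of each gene's group mean over its 0 h mean from 0 to 72 h, on the TMM scale at left and for TPM + 0.1 at right, with separate color scales. Blocks from top to bottom are mitotic entry, spindle, passenger complex, checkpoint and anaphase, kinetochore, cytokinesis and chromosome structure, each ordered by the 72 h change, and Cdc25b, Incenp, Pttg1 and Fzr1 stand out in red at 36 h and later at left.

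Further mitotic genes were counted in the same comparisons, beside the shares of all tested genes given above. Of 50 further spindle, kinetochore and cytokinesis genes, 29 rose and 4 fell at 12 h against 0 h, 34 rose and 1 fell at 24 h against 12 h, 3 rose and 24 fell at 36 h against 24 h, 0 rose and 46 fell at 48 h against 36 h, and 3 rose and 43 fell at 72 h against 48 h. Those shares were 25.3% higher and 27.6% lower at 12 h, 19.1% and 22% at 24 h, 34.1% and 39% at 36 h, 20% and 29.7% at 48 h, and 24.7% and 34.5% in the last day. Over the whole course 6 were higher and 43 lower at 72 h against 0 h, with a median of -2.22, where 43.3% of all tested genes were higher and 46.5% lower. Psrc1 had 4 reads over the 3 libraries at 72 h and 0 at 0 h. Kif14, the motor that brings citron kinase to the midbody, came next and was higher by 3.36 ± 0.23 at 72 h (adjusted p = 8.2e-12), though its TPM was 6.47 ± 3.44 at 72 h, against 12.6 ± 1.12 at 0 h (SD, n = 3 each). Cep55, which recruits the abscission machinery to the midbody, fell early. It had 3.01 ± 0.779 TPM at 12 h, against 22.4 ± 2.10 TPM at 0 h, and fell by 2.92 ± 0.19 on the log2 scale (adjusted p = 8.9e-11) while the cytokinesis genes above rose, and only 11 reads were counted over the 3 libraries at 72 h, against 2377 at 0 h. The inner kinetochore gene Cenpi fell by 4.23 ± 0.21 at 72 h against 0 h (adjusted p = 3.6e-14).

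Of 15 condensin II and cohesin genes, 6 rose and 3 fell at 12 h against 0 h (25.3% and 27.6% of all tested genes), and 5 were higher and 10 lower at 72 h against 0 h (43.3% and 46.5%), with a median of -1.37. The cohesin loader Nipbl and the cohesin subunit Stag2 were higher by 1.39 ± 0.10 (adjusted p = 1.4e-11) and 1.32 ± 0.08 (adjusted p = 3.7e-12) on the TMM scale, and had TPM differences of -2.47 and -2.88. Cdca5 (sororin), which protects cohesion until anaphase, fell by 2.74 ± 0.18 (adjusted p = 6.6e-12), and the cohesin ATPase Smc1a by 2.47 ± 0.08 (adjusted p = 7.5e-17).

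Of 18 subunits and partners of the APC/C, 5 rose and 6 fell at 12 h against 0 h, near the 25.3% and 27.6% of all tested genes. At 72 h against 0 h 4 were higher, Cdc26 and Anapc16 among them, and 13 lower, against 43.3% and 46.5% of all tested genes. Anapc1, a scaffold subunit of the ligase, fell by 2.91 ± 0.08 (adjusted p = 9.5e-18). Ube2s, the enzyme that extends ubiquitin chains for the APC/C, was higher by 1.47 ± 0.10 on the TMM scale (adjusted p = 8.6e-12) and stood at 39.1 ± 16.5 TPM at 72 h, against 170.0 ± 6.30 TPM at 0 h. Its partner Ube2c, 1 of the 52, fell by 1.83 ± 0.15 (adjusted p = 3.2e-10).

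Of 16 regulators of mitotic transcription, 11 rose and 0 fell at 24 h against 12 h (19.1% and 22% of all tested genes), 3 rose and 8 fell at 36 h against 24 h (34.1% and 39%), and 5 were higher and 10 lower at 72 h against 0 h (43.3% and 46.5%). The activators Mybl2 (B-MYB) and Foxm1 fell by 3.62 ± 0.21 (adjusted p = 7.9e-13) and 3.30 ± 0.18 (adjusted p = 1.6e-13), and Tfdp1, the dimer partner of the E2F factors, by 4.72 ± 0.12 (adjusted p = 3e-18), all at 72 h against 0 h. Mybl2 had 0.483 ± 0.222 TPM at 72 h, against 79.6 ± 6.10 TPM at 0 h, and already 12.1 ± 3.20 TPM at 36 h, against 121 ± 2.74 TPM at 24 h. Lin52, a subunit of the MuvB core, the complex that binds the CHR, was higher by 3.20 ± 0.09 (adjusted p = 3.5e-18), with 8.60 ± 2.48 TPM at 72 h, against 11.4 ± 0.471 TPM at 0 h. Mybl1 (A-MYB) was higher by 2.69 ± 0.19 (adjusted p = 1.4e-11), with 2.75 ± 0.997 TPM at 72 h, against 5.35 ± 1.21 TPM at 0 h. The higher calls of Lin52 and Mybl1 are negative as TPM differences, at -0.45 and -0.97.

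Positions and neighbours bear on a few of these values. In GENCODE M21 (GRCm38) Fzr1 lies at chr10:81366222-81378516, Pttg1 at chr11:43420250-43426251 and Incenp at chr19:9872296-9899551, all on the minus strand, and Nusap1 at chr2:119618298-119651244 and Cdc25b at chr2:131186949-131198497 on the plus strand. Exons of 16 of the 52 genes overlap an exon of another gene on the opposite strand, those of 2 (Top2a and Ncapd2) overlap a small RNA or a transcript on the same strand, and 34 overlap none. The libraries were strand-specific, but whether counting used the strand is not given in the sources used here, so values of the 16 could hold reads of the partner. Pttg1 and Incenp are not among them, while Nusap1, Fzr1 and Cdc25b are.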

How the data were processed

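Polyadenylated RNA of 21 MEDEP libraries, 7 groups of 3 biological replicates, had been sequenced from strand-specific libraries. The first deposited table holds estimated counts per gene, which the authors deposited without scaling for depth (16.7 to 39.3 M per library). The second holds TPM values that the authors also deposited. The submitters' processing notes list STAR 2.5.3a, kallisto and DESeq2, and the genome builds mm10 and GRCm38.p5. Which tool made which table is not given in the sources used here.

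Estimated counts were rounded, filtered with filterByExpr (minimum count 10, 12360 genes kept) and scaled by TMM. All 21 libraries entered 1 edgeR 4.0.16 quasi-likelihood model (R 4.3.3), and 7 contrasts were tested with Benjamini-Hochberg adjustment over all tested genes and a threshold of 0.05. Standard errors are the absolute log2 change over the square root of F and are approximate. TPM differences are differences of group means of log2(TPM + 0.1), and a pseudocount understates changes of low genes. The scripts were tested on simulated counts. Alternatives used limma 3.58.1 on log2(TPM + 1) or log2(TPM + 0.1), DESeq2 1.42.0, other scalings and filters, a replicate block, and each library left out. Adjusted p-values are from edgeR unless another tool is named, and they measure the spread between cultures of 1 line.

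The members, their role classes and the other gene lists were chosen with earlier results of these data known. Named with the value of every library were, per class, the gene with the highest mean TPM and those with the highest and lowest change at 72 h against 0 h. Named per comparison were the 3 highest and 3 lowest called, any called against the majority, and a panel (Mki67, Ccnb1, Cdk1, Top2a, Aurkb, Birc5, Cdc20, Fzr1 and Cit). Other genes named were chosen after their values were seen. Replicate numbers were checked for pairing by the correlation of deviations from the group means over 8257 genes. It was above 0.1 in all 3 pairs in the comparison of 24 h with 12 h (0.330 to 0.504), of 72 h with 48 h (0.296 to 0.325) and of SA with 12 h (0.373 to 0.426), where the numbers were taken to pair the libraries, and not in the other 4 comparisons. Gene positions are from GENCODE M21, in which 45 of the 52 gene IDs matched with their version, and promoter windows from RefSeq (GRCm38.p6).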

Additional observations from a re-analysis of the deposited data

How the results depend on the processing

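TPM and the TMM scale gave the largest differences. With limma on log2(TPM + 1), on log2(TPM + 0.1) and on log2(TPM + 1) without a TPM filter, the genes called higher numbered 23, 18 and 21 in the step to 12 h (38 with edgeR), 5, 2 and 2 in the step to 24 h (39), 1 each time in the step to 36 h (5), 0 each time in the step to 48 h (2), 1, 1 and 0 in the last day (2), and 2 each time for 72 h against 0 h (5). Those called lower numbered 0 each time at 12 h (1) and 49 each time at 36 h (25). A fold of at least 2 beside the adjusted p left 5 higher and 0 lower at 12 h, 3 higher at 24 h, 3 higher and 0 lower at 36 h and 0 higher at 48 h, by its own construction. The fit to only the 6 libraries compared called 2 lower at 12 h and 10 higher at 36 h. For the other counts and settings the cause was not tested. In the replicate block 39, 44, 6, 3, 2 and 5 genes were called higher and 1, 0, 30, 48, 48 and 44 lower in the 6 comparisons over time, in order, and 0 with SA. In the 3 comparisons whose numbers pair the libraries the block changed, among the named genes, only the call of Aurkb at 24 h (0.30). All-gene medians at 72 h against 0 h were 0.13 with DESeq2's size factors and 0.54 with no count filter, against -0.13.

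Changes of sign on the 3 TPM settings were those of Aurkb at 24 h (-0.0018, -0.0019, -0.0018), of Incenp (-0.1946, -0.196, -0.1946), Cit (-1.27, -1.30, -1.27), Cdc25b (-1.62, -1.63, -1.62) and Mki67 (-1.89, -1.89, -1.89) at 36 h, of Incenp (-0.0741, -0.0749, -0.0741) and Fzr1 (-0.4014, -0.4042, -0.4014) at 48 h, and of Incenp (-1.08, -1.09, -1.08), Nusap1 (-2.39, -2.42, -2.39), Cdc25b (-2.28, -2.54, -2.28) and Mki67 (-3.79, -3.86, -3.79) at 72 h against 0 h. Near 0, signs also turned for Cdc20 at 24 h (0.0063 with DESeq2 size factors, 0.0029 with the block, 0.0033 with DESeq2), Mki67 at 72 h (-0.0838 without a count filter), Cit at 72 h (0.2456 with DESeq2 size factors, 0.2143 with DESeq2, 0.0057 with 6 libraries) and, with SA in the fit to 6 libraries, Ccnb1 (-0.0038) and Top2a (-0.0091).

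Leaving out single libraries gave 30 to 34 genes higher at 12 h and 0 lower, 29 to 37 higher at 24 h, 20 to 28 lower at 36 h, 1 to 3 higher at 48 h, and 43 to 44 lower at 72 h against 0 h. Among named genes whose sign turned in these fits, the ranges were -0.052 to 0.0213 for Cdc20 at 24 h, -0.1533 to 0.3658 for Mki67 and -0.385 to 0.3234 for Cit at 72 h against 0 h, and, with SA, -0.1196 to 4e-04 for Mki67, -0.0086 to 0.0469 for Ccnb1, -0.0151 to 0.0246 for Top2a and -0.0173 to 0.103 for Cdc20.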
